A study of Mus musculus with 2 samples.

Results

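Toll-like receptors are germline-encoded receptors by which innate immune cells sense microbial lipids, proteins and nucleic acids. The account below follows 10 genes of this system in microglia, the resident macrophages of the brain: 7 receptors (Tlr1, Tlr2, Tlr3, Tlr4, Tlr7, Tlr9 and Tlr13), the lipopolysaccharide co-receptor Cd14, the shared adaptor Myd88 and the endosomal chaperone Unc93b1. They were chosen by name from the receptors and adaptors of this family, with earlier results of these data known. Other genes of the family, such as Tlr5 and Tlr6, are read in lists further below. All 10 members were found by symbol among the 32589 features of both deposited matrices. The C57BL/6 mice of the study were given corticosterone, the chief glucocorticoid hormone of mice, by oral gavage as a depression model, or vehicle as its control, and their prefrontal cortex was taken. Cells were sorted by flow cytometry as CD45low CD11b+, the usual gate for microglia, after enzymatic digestion at body temperature, and single-cell libraries were made with a Singleron GEXSCOPE kit. There was 1 library per group, so differences could not be set against a replicate spread, p-values are not given, and every interval below is a 95% interval for counting error only. The deposited files carry other words for the groups, wild type and depression, and each was assigned through its sample record. Group and library, with whatever else separated their preparation, cannot be told apart. The dose, the duration, the sex and number of the mice and what the vehicle was are not given in the sources used here.

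As background, receptors of this family divide by place. Tlr1, Tlr2 and Tlr4 work at the cell surface, where Tlr2 pairs with Tlr1 or Tlr6 to bind bacterial lipopeptides and Tlr4, handed lipopolysaccharide by Cd14, binds it together with Ly96 (MD-2). Tlr3 (double-stranded RNA), Tlr7 (single-stranded RNA), Tlr9 (CpG DNA) and Tlr13 (bacterial ribosomal RNA) act in endosomes and reach them through Unc93b1. All of them except Tlr3 signal through Myd88, while Tlr3 signals through Ticam1 (TRIF), which Tlr4 uses as well. Both routes lead to NF-kB and interferon regulatory factors and so to cytokine genes such as Il1b and Tnf. Glucocorticoids are best known for dampening this output, and macrophages and microglia carry most of these receptors in the adult brain.

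Promoters are shown for the 4 members whose levels or cluster patterns the results turn on most and for which a sequence was at hand, namely Tlr2, Tlr3, Myd88 and Tlr9. RefSeq promoter windows on build GRCm38.p6, from 250 bases before to 50 bases after the annotated start, matched 6 of the 10 members. Each is given 5′ to 3′ on the gene's own strand, in lower case, with matches to 1 of the searched motifs in capitals.
Tlr2 (chr3:83841559-83841858, minus strand): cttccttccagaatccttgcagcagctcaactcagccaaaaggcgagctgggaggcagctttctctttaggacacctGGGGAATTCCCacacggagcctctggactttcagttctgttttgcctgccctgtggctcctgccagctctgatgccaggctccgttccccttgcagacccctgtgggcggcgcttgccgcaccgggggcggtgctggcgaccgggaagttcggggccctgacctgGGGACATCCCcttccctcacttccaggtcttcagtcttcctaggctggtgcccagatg
Tlr3 (chr8:45410331-45410630, minus strand): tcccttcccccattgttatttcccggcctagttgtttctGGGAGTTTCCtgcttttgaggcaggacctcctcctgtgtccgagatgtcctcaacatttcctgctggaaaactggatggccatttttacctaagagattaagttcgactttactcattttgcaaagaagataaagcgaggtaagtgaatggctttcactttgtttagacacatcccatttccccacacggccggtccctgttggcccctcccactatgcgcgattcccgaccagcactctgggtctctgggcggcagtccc
Myd88 (chr9:119339969-119340268, minus strand): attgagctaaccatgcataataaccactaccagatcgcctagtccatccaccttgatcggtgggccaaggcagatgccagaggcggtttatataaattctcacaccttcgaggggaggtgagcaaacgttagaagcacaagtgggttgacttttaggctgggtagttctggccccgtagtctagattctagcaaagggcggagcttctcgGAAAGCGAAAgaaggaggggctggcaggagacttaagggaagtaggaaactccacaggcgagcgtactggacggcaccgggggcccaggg
Tlr9 (chr9:106222348-106222647, plus strand): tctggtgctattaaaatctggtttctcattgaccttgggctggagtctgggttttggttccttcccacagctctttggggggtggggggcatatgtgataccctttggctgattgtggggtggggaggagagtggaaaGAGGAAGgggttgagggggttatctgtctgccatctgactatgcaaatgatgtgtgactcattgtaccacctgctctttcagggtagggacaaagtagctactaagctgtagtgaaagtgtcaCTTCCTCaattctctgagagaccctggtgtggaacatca
The capitals in Tlr2 mark matches to the NF-kB consensus that begin at positions -173, -172 and -8 from the start, of which those at -173 and -172 overlap. Tlr3 has a match to the same consensus at -211. Myd88 has the interferon regulatory factor element (GAAA, any 2 bases, GAAA) at -40, and Tlr9 has the PU.1 core GAGGAAG, the site of a macrophage transcription factor, at -112 and again, on the other strand, at 11. Searched on both strands, the NF-kB consensus was found in 4.51% of all 32851 promoters of the same length, the interferon element in 3.44% and the PU.1 core in 13.6%. AGAACA, the core bases of a glucocorticoid receptor site, was in 19.0% of all promoters and, among these 6 members, in that of Tlr13 at -51. The full site (AGAACA, any 3 bases, TGTTCT) was in 0.00913% of all promoters and in none of the 6. These are letter matches in a short window and not measured binding sites. For Tlr2, Tlr3 and Myd88 the RefSeq start differs from the end of the gene model in the coordinates given below.

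The vehicle library held 10500 cells after filtering and the corticosterone library 17883, with 49325067 and 85103539 UMIs (unique molecular identifiers, each counting 1 captured transcript). By markers, 8315 vehicle cells and 15460 corticosterone cells were microglia-like, 1152 and 775 were like border-associated macrophages, which line the brain's vessels and coverings, 432 and 397 were neutrophil-like and 50 and 108 were monocyte-like. A low-UMI cluster of 528 and 1137 cells was left unnamed, and 23 and 6 cells were erythroid-like. The microglia-like class fits the sort label: all 10 microglia markers had UMIs in it, while summed neuron markers came to 1.57 and 0.550 CPM (UMIs scaled to a class total of 1000000). The class is made of different clusters in each library. Cluster 1 held 7454 of the vehicle cells and 417 of the corticosterone cells, cluster 0 held 227 and 8237, cluster 2 held 620 and 6409, and cluster 6, led by interferon-induced genes such as Cxcl10, held 14 and 397. The median microglia-like cell had 3164 UMIs in vehicle and 4004.5 in corticosterone. The libraries shared 104 cell barcodes, 101 among the cells kept.

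Among the surface receptors, the difference between the libraries was in Tlr2 and, to a smaller extent, in Tlr4, with Tlr1 slightly lower. Tlr2, a gene of 3 exons at chr3:83836272-83841767 (GRCm38), stood at 116 CPM (113 to 119.9) in vehicle microglia-like cells and 261 CPM (257 to 265) with corticosterone, from 3926 and 18962 UMIs. The corticosterone level was 2.24 times the vehicle level, a log2 ratio of 1.17 (1.12 to 1.22). The intervals lay far apart. Tlr4, at chr4:66827584-66930284, stood at 84.1 CPM (81.0 to 87.2) with vehicle and 118 CPM (116 to 121) with corticosterone, a log2 ratio of 0.49 (0.43 to 0.56). Its partner in lipopolysaccharide binding, Cd14, stood at 391 CPM (385 to 398) with vehicle and 496 CPM (491 to 501) with corticosterone, with a log2 ratio of 0.34 (0.31 to 0.37). So Tlr4 and Cd14 were both higher in the corticosterone library, each by less than 1.5-fold. With TMM or DESeq2 factors in place of total UMIs, the Tlr4 ratio was 0.60, just past 1.5-fold. Tlr1, at chr5:64924679-64933563, the partner of Tlr2 for triacylated lipopeptides, stood at 37.5 CPM (35.5 to 39.6) with vehicle and 33.7 CPM (32.3 to 35.0) with corticosterone, from 1267 and 2447 UMIs. Its log2 ratio was -0.16 (-0.25 to -0.057), so that the pair that forms the Tlr1-Tlr2 receptor had ratios on opposite sides of 0. Tlr1 is a close paralog of Tlr6, and how reads that fit both were counted is not given in the sources used here, so its value is uncertain to that extent.

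Among the endosomal receptors, the DNA sensor Tlr9 was lower in corticosterone and the RNA sensors differed little. Tlr9, at chr9:106222598-106226883 with 2 exons, stood at 26.8 CPM (25.1 to 28.6) with vehicle and 14.2 CPM (13.4 to 15.1) with corticosterone, from 905 and 1033 UMIs. The log2 ratio was -0.91 (-1.04 to -0.78), that is 0.530 times the vehicle level. Tlr13, at chrX:106143204-106160493, which rodents have and humans lack, stood at 184 CPM (179 to 188) with vehicle and 163 CPM (159.9 to 166) with corticosterone, a log2 ratio of -0.17 (-0.22 to -0.13). Tlr7, at chrX:167304929-167330558, stood at 201 CPM (196 to 206) and 189 CPM (186 to 192), a log2 ratio of -0.085 (-0.13 to -0.043). The ratio of Tlr7 is small enough for its direction to depend on scaling: it was 0.018 with edgeR's TMM factors and 0.020 with DESeq2 size factors, which moved the median of all genes by 0.10 and 0.11. Tlr3, at chr8:45395665-45411080, stood at 110.5 CPM (107 to 114) with vehicle and 113 CPM (110.5 to 115) with corticosterone, and its log2 ratio of 0.031 (-0.025 to 0.088) did not exclude 0. Unc93b1, at chr19:3935186-3949340, the chaperone that carries these receptors to endosomes, stood at 1222 CPM (1210.2 to 1234) with vehicle and 1279 CPM (1270.3 to 1287) with corticosterone. Its log2 ratio was 0.065 (0.049 to 0.082), with an interval made narrow by 41279 and 92938 UMIs.

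The adaptor Myd88, at chr9:119335934-119341411 with 6 exons, stood at 62.8 CPM (60.1 to 65.5) with vehicle and 81.1 CPM (79.1 to 83.2) in corticosterone microglia-like cells. Its log2 ratio was 0.37 (0.30 to 0.44), in the same direction as Tlr2, Tlr4 and Cd14. The gene overlaps Acaa1a on the opposite strand, whose level was 93.4 CPM with vehicle and 108 CPM with corticosterone. Whether counting used strand is not given in the sources used here, so reads of Myd88 and Acaa1a could be mixed where the genes overlap. Slc22a14, which overlaps Myd88 on the same strand, was at 0.651 and 0.715 CPM.

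**Figure D1:**
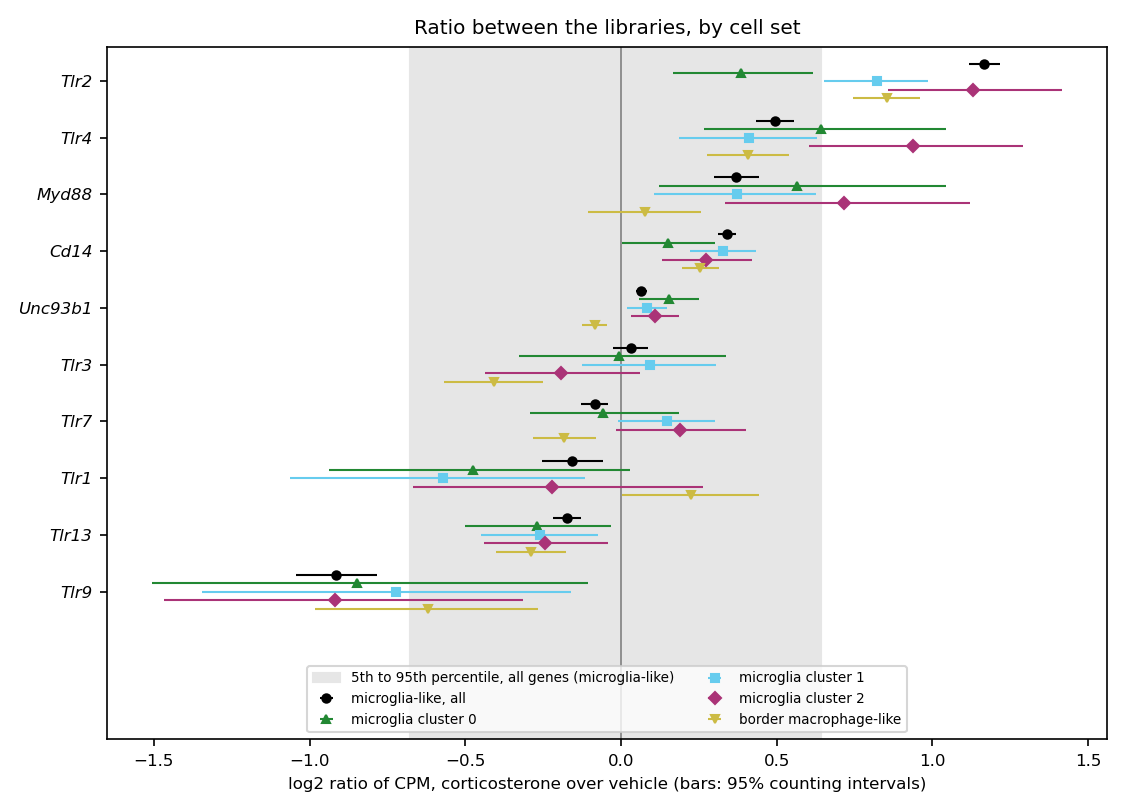
Log2 ratio of CPM, corticosterone over vehicle (horizontal axis), for each member, in all microglia-like cells, in microglia clusters 0, 1 and 2 and in border-associated macrophage-like cells, with 95% counting intervals and, in grey, the 5th to 95th percentile of all genes in microglia-like cells (-0.68 to 0.64). Tlr2 in all microglia-like cells lies to the right of the grey band at 1.17 and Tlr9 to its left at -0.91, with the other 8 members inside it.

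Seen as a list, the 10 members held 1 that was at least 1.5-fold higher in corticosterone (Tlr2) and 1 at least 1.5-fold lower (Tlr9). Of all 9684 genes with a mean of at least 5 CPM in microglia-like cells, 5.91% were at least 1.5-fold higher and 6.63% lower. The median log2 ratio of the members was 0.048, against -0.015 over all those genes. Of the members, 6 had a ratio above 0 and 4 below it. The list as a whole therefore did not sit to one side of the other genes, and the differences were in single members.

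Markers of other cells differed between the libraries within the microglia-like class. Summed neutrophil markers came to 508 CPM with vehicle and 152 CPM with corticosterone with 11 of 11 markers detected, border-associated macrophage markers to 309 and 328 with 8 of 8, and monocyte markers to 20.6 and 27.6 with 7 of 7. None of these markers was at 0. Stab1 made up most of the border-associated macrophage sum, at 228 and 287 CPM. The other markers of that list were each lower with corticosterone, such as Mrc1 at 31.2 and 19.9 CPM. Of the monocyte markers, Fn1 differed most, at 0.681 and 9.48 CPM. Plac8 and Vcan were also higher with corticosterone, and the other monocyte markers were lower. Microglia-like cells without a single UMI of those other myeloid markers numbered 1520 with vehicle and 2976 with corticosterone. Their median was 2414 and 3272 UMIs, against 3164 and 4004.5 in the whole class. Over these shallower cells the log2 ratio was 1.23 for Tlr2, 0.60 for Tlr4, 0.48 for Cd14, 0.44 for Myd88 and -0.56 for Tlr9. There Tlr4 passed 1.5-fold and Tlr9 no longer did.

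Counting cells in place of transcripts put the larger differences in the same members. Each cell was thinned to 1000 UMIs so that depth was equal, which left 7646 vehicle and 15359 corticosterone microglia-like cells and left out 669 and 101 shallower ones. Tlr2 had a UMI in 10.9% (10.3 to 11.7%) of the cells with vehicle and 20.1% (19.4 to 20.7%) with corticosterone, or 30.4% and 53.2% before thinning. Tlr4 had one in 7.69% (7.10 to 8.31%) and 11.0% (10.5 to 11.5%), and Myd88 in 5.81% (5.29 to 6.35%) and 7.96% (7.54 to 8.40%). Cd14 was seen in 29.2% (28.2 to 30.2%) with vehicle and 35.1% (34.3 to 35.8%) with corticosterone. Unc93b1, found in most cells even after thinning, stood at 68.1% (67.1 to 69.2%) and 71.1% (70.4 to 71.8%). The corticosterone interval lay above the vehicle interval for these 5 members. It lay below for Tlr9, with 2.77% (2.42 to 3.17%) and 1.38% (1.20 to 1.58%), and for Tlr1, with 3.90% (3.47 to 4.36%) and 3.05% (2.78 to 3.33%). The Tlr1 call rests on this random draw of UMIs: a second draw gave 3.54% (3.14 to 3.98%) and 3.29% (3.02 to 3.59%), and thinning to 2000 UMIs 7.10% (6.49 to 7.76%) and 6.66% (6.26 to 7.08%), and both pairs overlap. Before thinning, Tlr1 was in 12.7% and 13.4% of cells, so its order turned with depth. The thinned shares of the RNA sensors had overlapping intervals, at 10.1% and 10.3% for Tlr3, 17.3% and 17.0% for Tlr7 and 15.7% and 14.7% for Tlr13. In the second draw the Tlr13 interval lay below, at 15.8% (15.0 to 16.6%) and 14.3% (13.7 to 14.8%). Shares were not compared in this way over all genes, so these counts of members have no background to stand beside.

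Free RNA can give a cell a UMI of a gene that it does not express, and erythroid-like cells, which should lack these receptors, give the background. Only 16 vehicle and 3 corticosterone erythroid-like cells were deep enough to thin. Tlr2 had a UMI in 1 of the 16, or 6.25% (0.158 to 30.2%), and Unc93b1 in 1 of the 3, and no other member had a UMI in either group. A count of 0 in 16 cells allows a share of up to 18.8%, which is above the vehicle microglia-like shares of Tlr1, Tlr3, Tlr4, Tlr7, Tlr9, Tlr13 and Myd88 and below those of Unc93b1 and Cd14 in vehicle. So few cells could not bound the background of those 7 members below their shares in vehicle, and the 3 corticosterone cells bound none of the members. Tlr2 was not bounded either, as its upper limit of 30.2% is above its vehicle share. Before thinning, the 23 vehicle erythroid-like cells held 11 UMIs of Unc93b1 and 4 of Tlr7, or 127 and 46.1 CPM. They held 2 each of Tlr2 and Cd14, 1 each of Tlr3, Tlr9, Tlr13 and Myd88, and none of Tlr1 and Tlr4. Microglia markers in erythroid-like cells had a median level of 0.137 times (range 0.0735 to 0.155) that of microglia-like cells in the vehicle library and 0.0352 times (range 0 to 0.0962) in the corticosterone library. The median of 3678 and 1014 UMIs in erythroid-like cells compares with 3164 and 4004.5 in microglia-like cells.

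Because the libraries filled different clusters, each member was read within clusters 0, 1 and 2. Clusters were formed without the 10 members. The Tlr2 ratio stayed above 0 in each: 0.39 (0.17 to 0.62) in cluster 0, 0.82 (0.65 to 0.99) in cluster 1 and 1.13 (0.86 to 1.41) in cluster 2. In cluster 0, whose leading genes include Il1b and Gpr84, the 227 vehicle cells already stood at 216 CPM (184 to 251) against 282 CPM (277 to 287) with corticosterone. In cluster 1, which holds most vehicle cells, the levels were 115 CPM (111 to 118) and 203 CPM (181 to 226). So the vehicle cells of cluster 0 and the corticosterone cells of cluster 1 had overlapping intervals, and the ratio over the whole class, 1.17, mixes a difference between clusters with one inside them.

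Tlr4 had log2 ratios of 0.64, 0.41 and 0.94 in clusters 0, 1 and 2, and Myd88 had 0.56, 0.37 and 0.72. In cluster 2 alone, Tlr2, Tlr4 and Myd88 were all at least 1.5-fold higher, and in cluster 0 alone Tlr4 was past 1.5-fold while Tlr2 was not. In cluster 1 Tlr2 alone was, and Tlr9 was at least 1.5-fold lower in each of the 3 clusters. Of all genes with a mean of at least 5 CPM, 11.7% were at least 1.5-fold higher and 9.95% lower in cluster 0, 7.88% and 6.73% in cluster 1, and 8.26% and 12.8% in cluster 2. Each cluster had few cells in 1 of the libraries. Cd14 stayed within 0.15 and 0.33. Tlr9 was lower in every one of the 3 clusters, at -0.85 (-1.50 to -0.11), -0.72 (-1.35 to -0.16) and -0.92 (-1.47 to -0.32), although only 19, 26 and 29 UMIs stood behind the smaller of each pair. Tlr13 kept ratios from -0.27 to -0.24 and Tlr1 ones from -0.57 to -0.22. Tlr7 turned above 0 in clusters 1 and 2, at 0.15 (-0.0090 to 0.30) and 0.19 (-0.017 to 0.40), both intervals including 0. Tlr3 was at -0.0063, 0.094 and -0.19, and Unc93b1 at 0.15, 0.084 and 0.11.

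**Figure D2:**
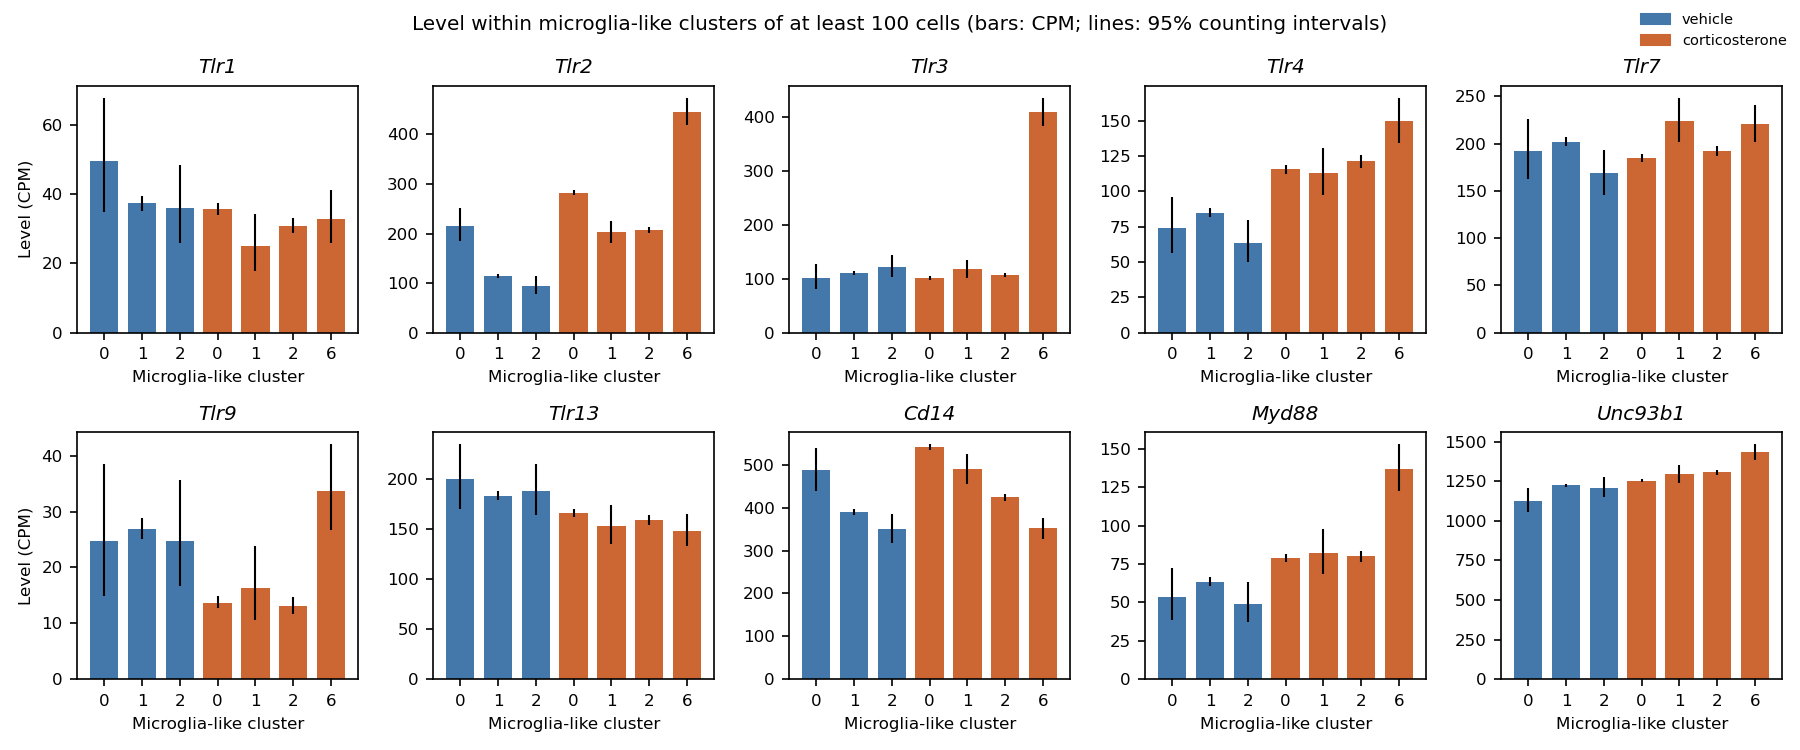
Level of each member in CPM (vertical axis, from 0) in each microglia-like cluster with at least 100 cells, by library, with 95% counting intervals. Tlr3 is highest in the interferon-led cluster 6, near 408 CPM against 103 CPM in the other corticosterone microglia-like cells.

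Cluster 6, the 397 corticosterone cells led by interferon-induced genes, are given as a description only, since the cells were grouped by their transcripts. Tlr3, itself known as an interferon-inducible gene, stood at 408 CPM (383 to 435) against 103 CPM in the other corticosterone microglia-like cells, a log2 difference of 1.98 (1.89 to 2.08). The 14 vehicle cells of the cluster held 16 Tlr3 UMIs, or 406 CPM (232 to 659.9). The vehicle interval spans the corticosterone level. Tlr9, low elsewhere, stood at 33.7 CPM (26.6 to 42.1) against 13.6 CPM. Tlr2 stood at 446 CPM against 255 CPM and Myd88 at 137 CPM against 79.3 CPM, log2 differences of 0.81 and 0.79. Tlr4 differed by 0.35, Tlr7 by 0.23, Unc93b1 by 0.17, Tlr1 by -0.037 and Tlr13 by -0.14 on the log2 scale. Cd14 went the other way, at 352 CPM against 500.4 CPM, a log2 difference of -0.51 (-0.61 to -0.41). Leaving this cluster out moved the Tlr3 ratio between the libraries from 0.031 to -0.094 and the Tlr2 ratio from 1.17 to 1.13.

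**Figure D3:**
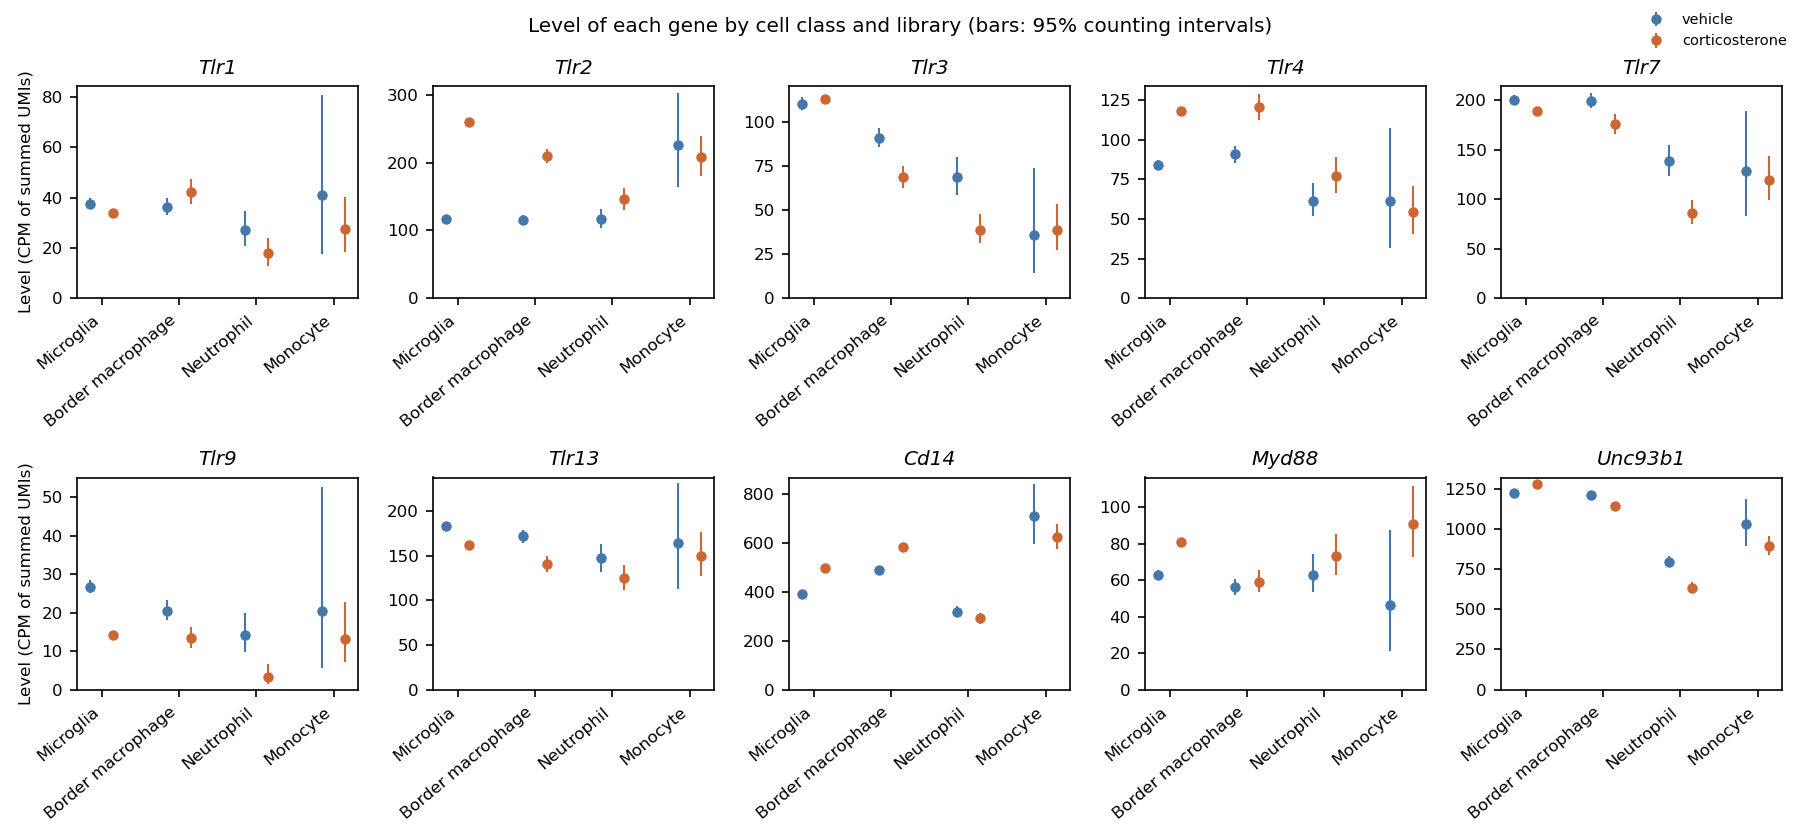
Level of each member in CPM (vertical axis, from 0) in 4 marker-defined classes, by library, with 95% counting intervals. The corticosterone points of Tlr2 lie above the vehicle points in microglia-like and border-associated macrophage-like cells, and the monocyte-like intervals are the widest.

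The other myeloid classes in the sort carried the same members. In border-associated macrophage-like cells Tlr2 stood at 116 CPM (110.1 to 122) with vehicle and 209.7 CPM (199 to 221) with corticosterone, a log2 ratio of 0.85 (0.75 to 0.96). It was the only member there at least 1.5-fold higher, and Tlr9, at -0.62 (-0.98 to -0.27), was the only one as much lower. Of all 9753 genes in that class, 7.6% were at least 1.5-fold higher and 7.23% lower. Tlr4, with 0.41 (0.28 to 0.54), and Cd14, with 0.26 (0.20 to 0.31), were also above 0. Tlr3 was lower, at -0.41 (-0.57 to -0.25), where microglia-like cells showed almost no difference. Tlr13 (-0.29) and Tlr7 (-0.18) were below 0 as in microglia-like cells, Tlr1 (0.22) and Myd88 (0.076) above it and Unc93b1 (-0.084) just below. The class was made of different cells in each library. Clustering anew at a finer resolution gave the class 1193 vehicle and 805 corticosterone cells, so its membership was not quite the same. A cluster of 240 and 790 cells and a cluster of 953 and 15 made it up. Depth was high: the class median was 6937 UMIs with vehicle and 6839 with corticosterone, where the microglia-like medians were 3164 and 4004.5. The 953 vehicle cells had a median of 9079 UMIs. Doublets were left in, and whether cells joined with microglia fed this class was not tested. Markers of the class itself were higher with corticosterone, such as Mrc1 at 827 and 1887 CPM and Pf4 at 1166 and 2177 CPM. How far this mix shaped the ratios was not tested. The class was not free of microglial transcripts: its microglia markers had a median level of 0.852 times (range 0.772 to 0.955) that of microglia-like cells with vehicle and 0.658 times (range 0.581 to 1.36) with corticosterone. Their part in these values was not tested.

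In neutrophil-like cells no member was at least 1.5-fold higher and 4 were lower, namely Tlr1, Tlr3, Tlr7 and Tlr9, with 9.15% of 9580 genes higher and 21.6% lower. Tlr2 stood at 116 CPM (103 to 131) and 146 CPM (131 to 162), a log2 ratio of 0.32 (0.090 to 0.56), and Tlr4 had the same ratio of 0.32. The 4 lower members had log2 ratios of -0.61 for Tlr1, -0.82 for Tlr3, -0.68 for Tlr7 and -2.07 for Tlr9, the last from 33 and 8 UMIs. The median microglia marker in this class was at 0.578 times (range 0.504 to 0.608) the level of microglia-like cells with vehicle and 0.357 times (range 0.321 to 0.411) with corticosterone, so microglia markers were lower there along with those 4 receptors. Their part in these values was not tested. The class joins a Cxcr2-led cluster, with 204 and 275 cells, and a cluster led by Camp and Ngp, granule genes of immature neutrophils, with 228 and 122. Microglia markers were at 0.743 times and 0.536 times in the Cxcr2-led cluster and 0.343 times and 0.142 times in the Camp-led one. In the latter, Tlr2 stood at 71.9 CPM (56.0 to 90.8) with vehicle and 54.9 CPM (41.8 to 70.8) with corticosterone, Tlr7 at 88.3 CPM and 38.1 CPM and Unc93b1 at 494 CPM and 283 CPM. The Cxcr2-led cluster had more of each, with Tlr2 at 149 CPM and 221 CPM, Tlr7 at 175 CPM and 126 CPM and Unc93b1 at 1015 CPM and 927 CPM.

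Set side by side, the order of the classes was the same in both libraries for Cd14 and turned with the library for Tlr2. Tlr3 was highest in microglia-like cells in both libraries. Relative to them, its log2 difference was -0.28 (-0.38 to -0.18) with vehicle and -0.72 (-0.86 to -0.59) in corticosterone border-associated macrophage-like cells, and -1.62 (-2.94 to -0.58) and -1.54 (-2.04 to -1.08) in monocyte-like cells. Microglia markers in monocyte-like cells had a median level of 0.382 times (range 0.303 to 0.469) and 0.406 times (range 0.367 to 0.586) that of microglia-like cells, and their part in the monocyte-like values was not tested. Cd14, a classic monocyte marker, ran in the order monocyte-like, border-associated macrophage-like, microglia-like and neutrophil-like in both libraries. The vehicle levels were 709 CPM (595 to 837), 487 CPM (475 to 499), 391 CPM (385 to 398) and 318 CPM (296 to 342). The corticosterone levels were 622 CPM (574 to 674), 581 CPM (563 to 599.6), 496 CPM (491 to 501) and 291 CPM (269 to 313), with overlap only between the first 2. For Tlr2 the order turned with the library. In vehicle, monocyte-like cells were highest at 226 CPM (164 to 303), and the other 3 classes, all near 116 CPM, had overlapping intervals. In corticosterone, microglia-like cells were highest at 261 CPM, followed by border-associated macrophage-like cells and monocyte-like cells, whose intervals overlapped at 209.7 CPM (199 to 221) and 208 CPM (181 to 239), and by neutrophil-like cells at 146 CPM.

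Unc93b1 was lowest in neutrophil-like cells, at 797 CPM and 634 CPM, and Tlr7 was lower there, at 138 CPM and 86.2 CPM, than in microglia-like cells. Monocyte-like levels of Tlr7 were 128 CPM (83.1 to 189) and 119.6 CPM (98.9 to 143). Tlr4 stood within 61.5 CPM and 121 CPM in every class but the monocyte-like one, which had 61.6 CPM (31.8 to 108) and 54.2 CPM (40.6 to 70.8). Tlr13 over the 4 classes ran from 125 CPM in corticosterone neutrophil-like to 184 CPM in vehicle microglia-like cells. Myd88 in monocyte-like cells was 46.2 CPM (21.1 to 87.7) with vehicle and 91.0 CPM (73.0 to 112) with corticosterone, from 9 and 89 UMIs. Tlr1 and Tlr9 had 8 and 4 UMIs in vehicle monocyte-like cells, too few to place them in an order.

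Genes that act around the members were read from 7 lists in microglia-like cells. Of their 76 genes, 64 had a mean of at least 5 CPM, of which 10 were at least 1.5-fold higher in corticosterone and 3 lower. Over all 9684 genes at that level, 5.91% were higher and 6.63% lower. Of the other receptors and co-receptors, 6 of 10 were above that level, with a median log2 ratio of -0.48, 1 higher and 2 lower. The lower ones were Cd180 (RP105), a receptor-like brake on Tlr4 signalling, at 353 CPM with vehicle and 139.9 CPM with corticosterone, a log2 ratio of -1.34 (-1.37 to -1.30), and Tlr5, the flagellin receptor, at 21.6 CPM with vehicle and 14.1 CPM with corticosterone, a log2 ratio of -0.62 (-0.75 to -0.48). Ly86 (MD-1), the partner protein of Cd180, was at 1452 CPM with vehicle and 1094 CPM with corticosterone, a log2 ratio of -0.41. Ly96, without which Tlr4 does not bind lipopolysaccharide, was at 75.0 CPM with vehicle and 50.9 CPM with corticosterone, a log2 ratio of -0.56 (-0.63 to -0.49). Thus Tlr4 and Cd14 were higher in the corticosterone library while Ly96 was lower.

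Tlr6, the other partner of Tlr2, was at 26.3 CPM with vehicle and 22.8 CPM with corticosterone, a log2 ratio of -0.20 (-0.32 to -0.083). Both partners of Tlr2 thus had small ratios below 0, while that of Tlr2 was above it. The thinned shares of Tlr6 overlapped, at 2.56% (2.22 to 2.94%) with vehicle and 2.38% (2.15 to 2.64%) with corticosterone. Before thinning they were 9.07% and 9.35%, in the other order. Tlr12, at 26.0 CPM with vehicle and 40.6 CPM with corticosterone, was the higher one, with a log2 ratio of 0.64 (0.53 to 0.75). Tlr8, Tlr11, Lbp and Cd36 were under 5 CPM. Tlr8, the closest relative of Tlr7, had 8 and 5 UMIs in microglia-like cells, or 0.237 CPM and 0.0688 CPM, but 10.7 CPM (8.98 to 12.7) and 10.7 CPM (8.35 to 13.4) in border-associated macrophage-like cells and 7.74 CPM and 8.03 CPM in neutrophil-like cells. In contrast to the members, Tlr8 was therefore near 0 in microglia-like cells and measurable in every other myeloid class, at 20.5 CPM and 12.3 CPM in monocyte-like cells.

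The other adaptors and chaperones had a median of 0.33 over 9 genes, all above 0 and 2 of them at least 1.5-fold higher. These were Hsp90b1 (gp96), the chaperone that folds most of these receptors, at 986 CPM with vehicle and 1792 CPM with corticosterone, a log2 ratio of 0.86, and Slc15a3, an endosomal transporter, with 0.75. Pik3ap1 had the lowest ratio, 0.065. Endosomal proteases cut the nucleic acid sensors to their active form, and their list had a median of 0.17 over 5 genes. The highest ratio, 1.44, was that of Ifi30, which is a thiol reductase and not a protease. The proteases themselves ran from 0.017 for Ctss to 0.37 for Lgmn, all short of 1.5-fold. Ifi30 is also a leading gene of cluster 2. None of the 17 kinases and ubiquitin enzymes downstream of Myd88 and Ticam1 passed 1.5-fold, with a range from -0.32 for Map3k7 to 0.42 for Traf3. None of the 10 negative regulators did either, from -0.39 for Tnfaip3 to 0.46 for Dusp1, a known glucocorticoid-induced phosphatase. Since only 5.91% of all genes were higher and 6.63% lower, the absence of calls in lists this short is not a result about them.

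Of the 6 transcription factors, Irf7, which Tlr7 and Tlr9 use to induce interferon, was higher, at 6.57 CPM with vehicle and 45.4 CPM with corticosterone, a log2 ratio of 2.79 (2.59 to 2.99), and Rel was lower, at -0.64. The inducible targets had the highest list median, 0.51 over 11 genes, with 5 at least 1.5-fold higher and none lower. Il1b, at 28.9 CPM with vehicle and 289 CPM with corticosterone, had a log2 ratio of 3.32 (3.23 to 3.42). The other 4 were Cxcl2 with 1.81, Cxcl10 with 1.04, Ccl5 with 1.01 and Ccl2 with 0.87. Tnf, with 0.51, did not reach 1.5-fold, and Il6 had the lowest ratio, -0.42. Over all genes the background shares are the 5.91% and 6.63% given above, and Il1b and Cxcl10 are leading genes of clusters 0 and 6, which were filled mostly by corticosterone cells.

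**Figure D4:**
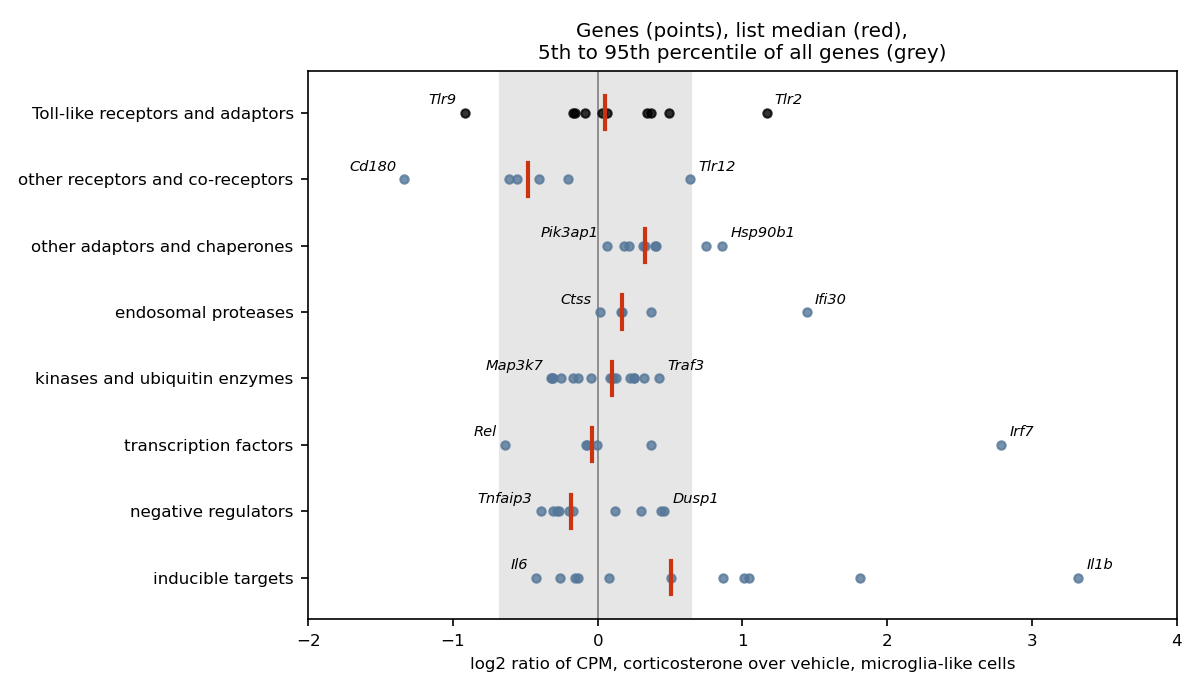
Log2 ratio of CPM, corticosterone over vehicle, in microglia-like cells (horizontal axis) for the members and the genes of 7 pathway lists with a mean of at least 5 CPM, with each list's median in red and the 5th to 95th percentile of all genes in grey. The inducible targets reach 3.32 (Il1b), and the kinases and negative regulators all lie inside the grey band.

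Within single cells the members were found together about as often as their separate shares give. After thinning, a microglia-like cell had a UMI of 1.72 of the 10 members on average in vehicle and 1.92 in corticosterone, with a median of 2 in each. None of the members was seen in 10.2% of vehicle and 7.94% of corticosterone cells, and 4 or more in 4.80% and 7.92%. Over the 45 pairs of members, the number of cells with both, divided by the number that the product of the 2 shares gives, had a median of 0.999 in vehicle and 1.02 in corticosterone. The highest value in vehicle was that of Tlr2 with Tlr4, 1.23, from 79 cells with both, and the lowest values in both libraries rest on the rarest member, Tlr9. The 45 values ran from 0.607 to 1.23 in vehicle and from 0.464 to 1.33 in corticosterone, and they describe sparse counts.

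The genes whose level followed each member most closely were sought over 7 points, namely the microglia-like clusters with at least 100 cells in each library, among 6385 genes of at least 20 CPM. With so few points, which share libraries and clusters, the correlations describe a pattern and carry no test. For Tlr2 these were Mfsd12, Relb and Cpd (r between 0.981 and 0.989), for Tlr4 Ddx21, Pfkfb4 and Gpr108 (r between 0.981 and 0.992), for Cd14 Myc, Kcnj2 and Por (r between 0.920 and 0.928) and for Tlr1 Lias, Fbxo38 and Zgpat (r between 0.963 and 0.970). Relb is an NF-kB subunit and Myc a growth-related transcription factor. For Tlr3 they were Pik3ap1, Samhd1 and Prpf38a (r between 0.993 and 0.995), for Tlr7 Zcrb1, Rnf25 and Rae1 (r between 0.916 and 0.948), for Tlr13 Fam168b, Espl1 and Scd2 (r between 0.976 and 0.983) and for Unc93b1 Capza2, Rnf139 and Pnpt1 (r between 0.989 and 0.993). Samhd1, beside Tlr3, is an antiviral nuclease that interferon induces. For Tlr9 they were Arf4, Rhoh and Cflar (r between 0.936 and 0.967) and for Myd88 Trim12a, Lamp2 and Sap30 (r between 0.983 and 0.995).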

How the data were processed

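The deposited matrices hold raw UMI counts per gene and barcode, per the file headers and their whole-number values. The submitters' processing notes name bcl2fastq 2.19 and build GRCm38, and the aligner, the counter and its use of strand are not given in the sources used here. The 10 members, the gene lists and the markers were chosen with earlier results of these data known. The text names all members, all genes of the list of other receptors, and from each other list the genes with the highest and lowest ratio at a mean of at least 20 CPM, as well as the genes with the most similar pattern. Slc15a3, Lgmn, Cxcl2, Cxcl10, Ccl5, Ccl2 and Tnf, and the single marker genes whose levels are given, were named after their values were seen.

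Cells with at least 500 UMIs, 300 genes and at most 20% mitochondrial UMIs were kept, which removed 55 of 10555 vehicle and 230 of 18113 corticosterone barcodes. Both libraries were clustered together (scanpy 1.11.5, leidenalg 0.10.2) on 2000 variable genes without the members, 30 components, 15 neighbours and resolution 0.5. A cluster was named from markers of 16 classes when 3 or more were found in 10% or more of its cells, each at 2 times its level elsewhere or higher, and otherwise microglia-like when the geometric mean of its microglia markers reached 0.5 times the value over all cells. It stayed unnamed when its 10 leading genes held more markers of another class, or none of its own while the median UMI count lay under 33.3% of its library's. Scrublet marked 0 cells in each library, which counts as a failed run, and doublets were left in.

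UMIs were summed per class and library, scaled to CPM (counts per 1000000) and compared as log2 ratios. Intervals at 95% are exact Poisson for sums and ratios and Clopper-Pearson for shares, and cover counting error only. A call means at least 1.5-fold at a mean of at least 5 CPM. The ratio script was checked on simulated counts. The alternatives used edgeR 4.0.16 and DESeq2 1.42.0 for scaling factors only. Of the features, 52 repeated a symbol, and gene positions come from GENCODE M21. The sequence around Cd14 and its position are not reported here.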

Additional observations from a re-analysis of the deposited data

Results flagged for a closer look

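For 2 members the log2 ratio of corticosterone over vehicle lay on opposite sides of 0 in 2 cell classes with both counting intervals clear of 0, among microglia-like, border-associated macrophage-like and neutrophil-like cells. Other members had ratios of opposite sign whose intervals were not both clear of 0, such as Tlr3 and Cd14. Tlr1 was at 0.22 in border-associated macrophage-like cells and -0.16 in microglia-like cells. Unc93b1 was at -0.084 in border-associated macrophage-like cells and -0.33 in neutrophil-like cells, against 0.065 in microglia-like cells. The median over all genes was 0.0024, -0.17 and -0.015 in these classes, in that order. TMM and DESeq2 factors moved the microglia-like median by 0.10 and 0.11, more than the smaller of these ratios, and were not used in the other classes. With 1 library per group, these differences between classes were not tested. The border-associated macrophage-like class was also made of different cells in each library, and the neutrophil-like class joins clusters in different proportions, as given above.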

How the results depend on the processing

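Over the 13 alternatives that kept the whole microglia-like class or replaced its definition, the log2 ratio lay between 1.11 and 1.27 for Tlr2, 0.46 and 0.60 for Tlr4, 0.26 and 0.48 for Cd14, 0.32 and 0.48 for Myd88, 0.054 and 0.17 for Unc93b1, -0.094 and 0.14 for Tlr3, -0.10 and 0.020 for Tlr7, -0.19 and -0.068 for Tlr13, -0.36 and -0.050 for Tlr1 and -1.01 and -0.56 for Tlr9. Tlr7 turned from -0.085 to 0.018 with TMM factors, 0.020 with DESeq2 size factors, 0.15 in cluster 1 and 0.19 in cluster 2.

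The number of members at least 1.5-fold higher went from 1 to 2 with TMM factors, with DESeq2 size factors and in cells with no UMI of other myeloid markers, Tlr4 being the added gene at 0.60 in each, and to 3 in cluster 2 alone. In those cells without other myeloid markers the number lower went from 1 to 0. Members whose share was higher went from 5 to 8 without thinning, and those lower from 2 to 1 without thinning and by the rule per cell. No count over all genes stands beside these counts of shares. With a second random draw and with thinning to 2000 UMIs there were again 2 lower, but they were Tlr9 and Tlr13 and no longer Tlr1. Of the pathway genes, 10 higher became 6 and 3 lower became 1 at a fold of 2, and with no filter on level 15 were higher and 7 lower. The cause of these shifts was not tested. Leaving out cluster 6 and reading clusters 0, 1 and 2 alone were chosen after seeing the data. No paired analysis was possible because each group has 1 library, and for the same reason no library could be left out. Depth limits the monocyte-like and erythroid-like values and Tlr9 within clusters.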
